A study of Musca domestica with 16 samples.

Results

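The yolk protein genes of the house fly, Musca domestica, are described here as the 7 genes that share the ortholog group of yp3 (LOC101900967) in the authors' deposited table of 14631 genes. Yp3 and LOC101889813 were chosen by their measured FPKM in earlier results of these data, which differed between the strains in male heads or testes. The group adds LOC101889640, LOC101889984, LOC101890561, LOC101891084 and LOC101900352, which were taken for their ortholog group alone. The levels of yp3 and LOC101889813 are therefore a description, and the calls the authors made on them are repeated as such. The table pairs all 7 genes with the same 3 genes of Drosophila melanogaster, and a gene symbol was matched for yp3 alone.

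Yolk proteins are secreted proteins that the growing oocyte takes up by receptor-mediated endocytosis and stores as food for the embryo. In higher flies such as Drosophila and the house fly they are relatives of lipases, and in Drosophila they are made in the fat body, a tissue that is also found inside the head, and in the follicle cells around the oocyte. In Drosophila the female form of the transcription factor Doublesex raises yolk protein transcription in the fat body and the male form represses it, so these genes are classic sex-specific markers.

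The libraries come from unmated flies 4 to 6 days old of 2 strains kept at 25 °C. In strain CS the male determiner lies on chromosome III, and its males are called IIIM, whereas CSaY carries it on the Y chromosome, and its males are called YM. Polyadenylated RNA was sequenced from male heads and testes, with 3 libraries in each of the 4 male groups, and from female heads and ovaries, with 1 library for each strain and tissue, 16 libraries in all. The table gives 1 value per group in FPKM, a count of fragments scaled to transcript length and library size, which allows levels to be set side by side between genes. No spread between male libraries and no read depth can be given from these values, and the female values have no replicate. In such bulk samples fewer cells of a type and less RNA per cell cannot be told apart. The ovary marker bcd, whose messenger RNA is laid down in the oocyte in Drosophila, reached 253 and 249.7 FPKM in CS and CSaY ovaries, stood at 1.96 and 0.577 FPKM in IIIM and YM testes, and was listed at 0 in all 4 head groups. No head, testis or fat body marker could be matched by name, so those labels were not checked.

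The genes lie in clusters. On scaffold NW_004765161, which the authors' deposited table puts on chromosome III, the chromosome that carries the male determiner in IIIM males, LOC101889640 occupies positions 1694 to 2976, LOC101889813 positions 8198 to 9480, LOC101889984 positions 15191 to 16545 and yp3 positions 24654 to 26160. The gaps between them measure 5221, 5710 and 8108 bases. LOC101891084 (positions 46258 to 47795) and LOC101890561 (positions 50643 to 51936) lie on scaffold NW_004769917 and LOC101900352 (positions 3848 to 5141) is the only gene of scaffold NW_004775340, and neither of these scaffolds has a chromosome in the table. The sources used here do not name the assembly behind these positions, and exons and strands were not used. In the later RefSeq gene table of assembly GCF_030504385.1, 5 of the 7 genes follow each other in the order yp3, LOC101889984, LOC101889640, LOC101890561 and LOC101891084, with a single other gene, LOC101890732, between LOC101889640 and LOC101890561. LOC101889813 and LOC101900352 have no entry there. LOC101889813 spans 1283 bases, exactly as LOC101889640 does, and LOC101900352 spans 1294 bases, exactly as LOC101890561 does. No source used here says how the authors assigned reads that match several copies, so single values are uncertain, most of all for these 2 pairs.

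Yp3 had a value above 0 in every group, as had LOC101889640 and LOC101889984. The lowest value of yp3, 3.82 FPKM in YM male heads, is among those for which it was chosen. The level of yp3 ranged from the upper few percent of all genes to the middle of the distribution. Female heads held the highest levels, 1328 FPKM in CSaY and 347 FPKM in CS, above 98.8% and 96.3% of all genes. Ovaries of CS and CSaY held 109 and 27.7 FPKM. In males it stood at 66.0 FPKM in IIIM heads, 3.82 FPKM in YM heads, 7.05 FPKM in IIIM testes and 13.6 FPKM in YM testes. In descending order the groups are CSaY female head, CS female head, CS ovary, IIIM male head, CSaY ovary, YM testis, IIIM testis and YM male head, with steps of 1.65-fold to 3.83-fold between neighbours. IIIM male heads thus stood 2.38-fold above the CSaY ovary library. Whether neighbours in this order differ beyond the spread between libraries cannot be judged from 1 value per group.

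LOC101889640, on the same scaffold as yp3, was high in both female head libraries and low elsewhere. Female heads of CS and CSaY held 913 and 890.1 FPKM of it, above 98.4% and 98.3% of all genes. In IIIM and YM male heads it stood at 1.06 and 1.08 FPKM, in IIIM and YM testes at 7.07 and 7.26 FPKM, and in the CS and CSaY ovary libraries at 2.71 and 1.71 FPKM. Its level in female heads was thus 338-fold (CS) and 522-fold (CSaY) that in the ovary of the same strain, while for yp3 the same ratios were 3.18 and 47.9.

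**Figure D1:**
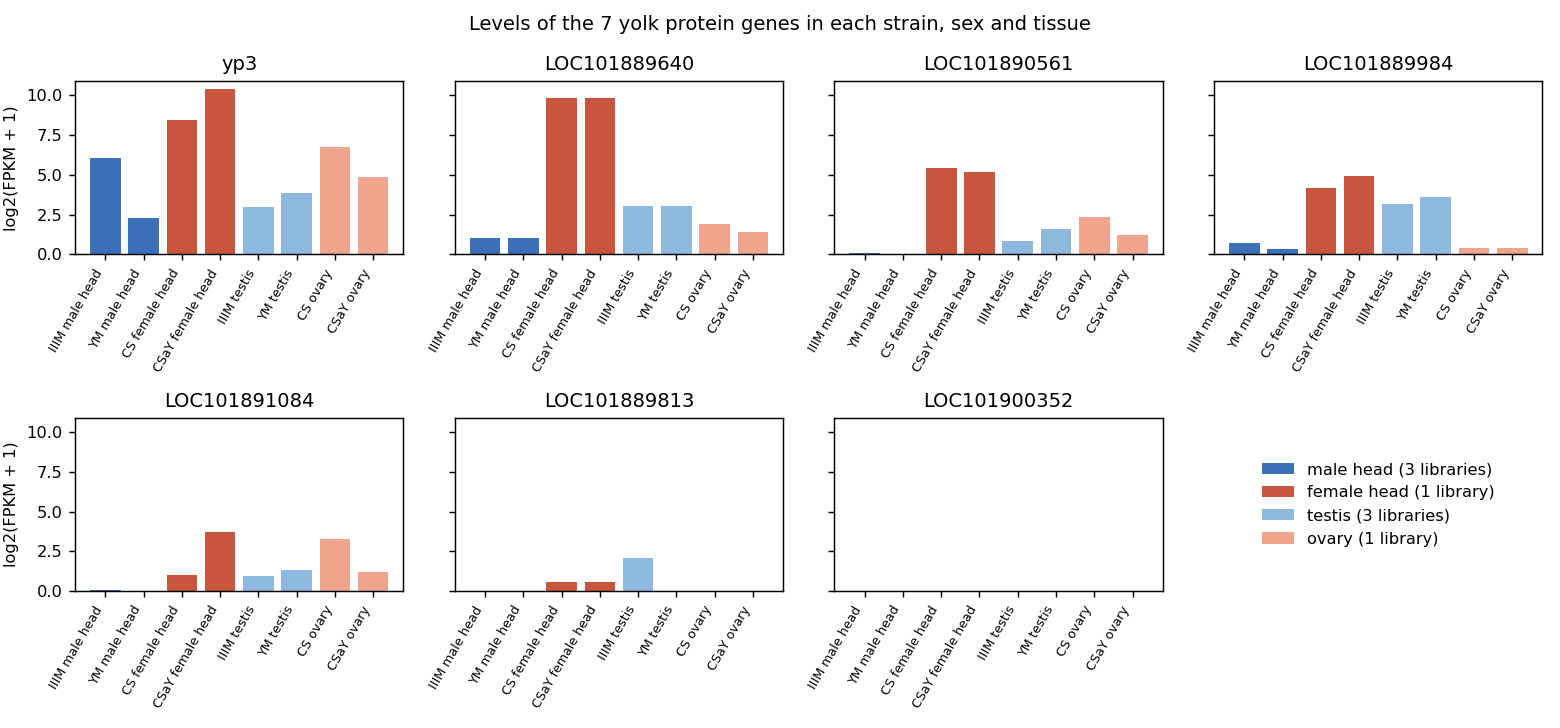
Level of each of the 7 yolk protein genes in the 8 groups, as log2(FPKM + 1) of the authors' group value; male bars combine 3 libraries and female bars are 1 library each, so no error bars can be drawn. Yp3, LOC101889640 and LOC101889984 are above 0 in all groups. LOC101889640 is high in both female head libraries and near 1 FPKM in both male head groups, and LOC101900352 is listed at 0 everywhere.

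The other members were less abundant. LOC101890561 stood at 42.7 and 34.5 FPKM in female heads of CS and CSaY and at 0.0868 FPKM in IIIM male heads, and it was listed at 0 in YM male heads. Its gonad values were 0.829 and 2.06 FPKM in IIIM and YM testes and 4.10 and 1.33 FPKM in the CS and CSaY ovary libraries. Its highest values were thus those of the female heads, as for LOC101889640, at a lower level.

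LOC101889984 stood at 17.4 and 29.2 FPKM in female heads of CS and CSaY and at 8.13 and 11.3 FPKM in IIIM and YM testes. Its values were 0.632 and 0.286 FPKM in IIIM and YM male heads and 0.341 and 0.335 FPKM in the CS and CSaY ovary libraries. It was thus seen in female heads and testes and was low in ovaries.

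LOC101891084 stood at 0.992 and 11.9 FPKM in female heads of CS and CSaY, and at 8.72 and 1.31 FPKM in their ovaries. It stood at 0.911 and 1.55 FPKM in IIIM and YM testes, at 0.0404 FPKM in IIIM male heads and was listed at 0 in YM male heads. The 2 female tissues ranked the strains in opposite order for this gene.

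LOC101889813 stood at 3.21 FPKM in IIIM testes, at 0.493 and 0.499 FPKM in the CS and CSaY female head libraries, and was listed at 0 in the other 5 groups. LOC101900352 was listed at 0 in all 8 groups and was not tested in any comparison. A value listed at 0 in such a table can be a failed estimate, so absence is not claimed for either gene.

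The make-up of the yolk protein transcripts differed between tissues. The summed level of the 7 genes was 1322 and 2294 FPKM in female heads of CS and CSaY, 125 and 32.4 FPKM in the ovary libraries, 27.2 and 35.8 FPKM in IIIM and YM testes, and 67.9 and 5.19 FPKM in IIIM and YM male heads. Yp3 made up 87.3% and 85.6% of this sum in the CS and CSaY ovary libraries. In female heads LOC101889640 led in CS, with 69.1% against 26.2% for yp3, and yp3 led in CSaY, with 57.9% against 38.8%. In testes no gene made up more than 38.1%, and LOC101889640, LOC101889984 and yp3 each held 20.3% or more in both strains. In IIIM and YM male heads yp3 held 97.3% and 73.7%, shares that rest on the levels for which it was chosen.

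**Figure D2:**
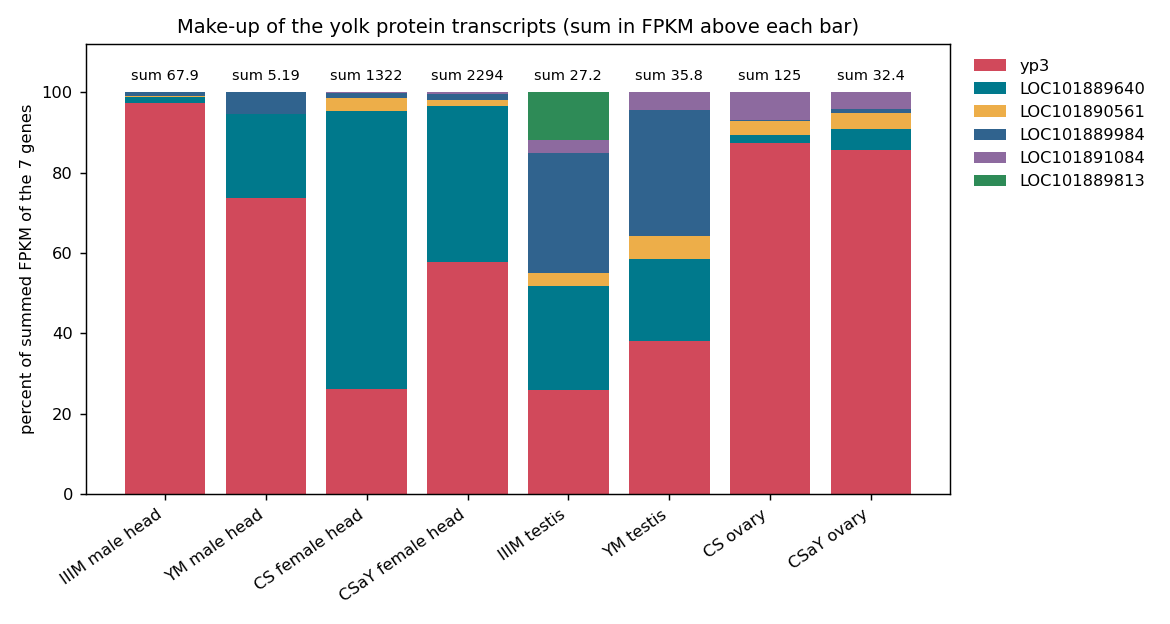
Percent of the summed FPKM of the 7 genes that each gene held in each group, with the sum in FPKM above each bar. Yp3 holds 87.3% and 85.6% in the CS and CSaY ovary libraries. In IIIM and YM male heads it holds 97.3% and 73.7% of sums of 67.9 and 5.19 FPKM, shares that rest on the levels for which it was chosen. LOC101889640 holds 69.1% in the CS female head library, and testes are spread over several genes.

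The 5 members tested between female and male heads all had the higher mean in female heads. The authors compared the 6 male with the 2 female head libraries, strains pooled, and a gene is called different here where their q, an adjusted p-value, lies below 0.05. The levels and directions given with it are those of the means of the 2 strain values. Of the 7 members 5 were tested and 3 were called, all 3 higher in females, beside 13.3% of all tested genes called and 11.1% called higher in females. LOC101889640 was 846-fold higher in female heads, with a mean of 902 against 1.07 FPKM, and the authors' deposited table gives q = 0.000717. LOC101889984 was 50.8-fold higher, with 23.3 against 0.459 FPKM, and q is 0.0209 in the authors' deposited table. Yp3 was 24.0-fold higher, with 837 against 34.9 FPKM, and for this gene too the authors' deposited table has q = 0.000717.

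The members that were not called had large ratios as well. LOC101890561, with q = 0.500 in the authors' deposited table, stood at 38.6 against 0.0434 FPKM, a larger ratio than that of yp3. LOC101891084, with q = 0.400 in the authors' deposited table, stood at 6.42 against 0.0202 FPKM. By log2 difference LOC101889640 held place 11, LOC101890561 place 45, yp3 place 55, LOC101889984 place 64 and LOC101891084 place 108 of the 9679 tested genes, counted from the most female-biased. The median log2 difference, male minus female, was -4.54 over the 5 members and 0.31 over all tested genes. For all 5 tested members both female libraries lay above both male columns, as they did for 12.8% of tested genes. Of these 5 only yp3 was tested between the male head groups. The others thus entered the comparison through their female level and could hardly have differed in the other direction. The size of their difference largely reflects that level. The difference of yp3, which is also the median of the 5, includes the male head values for which it was chosen. Nothing is read from the places or the median.

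Within a strain, the ratio of female to male heads is given as a description. Yp3 was 5.25-fold higher in CS female than in IIIM male heads and 347-fold higher in CSaY female than in YM male heads. For LOC101889640 the same ratios were 866 and 828. For LOC101889984 they were 27.6 and 102. The level in IIIM male heads was 19.0% of that in CS female heads for yp3, 4.08% for LOC101891084 and 3.63% for LOC101889984. It was 0.204% for LOC101890561 and 0.116% for LOC101889640. The table has no test of sex within a strain, so these ratios are untested. Those of yp3 include the male head values for which it was chosen, and nothing is read from their difference between the strains.

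In male heads the strains differed in yp3. From 66.0 FPKM in IIIM heads to 3.82 FPKM in YM heads the log2 difference of FPKM + 1 was -3.80 (q = 0.00138 in the authors' deposited table), place 9 from the most reduced of 9441 tested genes, of which 9.25% were called and 5.86% called lower in YM. This is the contrast for which yp3 was chosen, so nothing is read from the rank. The other 6 members were not tested there. LOC101889640, the most abundant of them in female heads, stood at 1.06 and 1.08 FPKM. The ratio of yp3 to LOC101889640 was 62.6 in IIIM and 3.55 in YM male heads, and 0.380 and 1.49 in the CS and CSaY female head libraries. Both male ratios rest on the yp3 levels for which the gene was chosen, and nothing is read from them.

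In testes the yolk protein genes were low, and the authors called 2 of the 6 tested members, yp3 higher and LOC101889813 lower in YM, beside 13.0% of all tested genes called, 7.61% higher and 5.41% lower. These 2 are the genes chosen for their strain differences in male heads or testes, so the count is no result about the family, and none of the 4 tested members taken for their ortholog group alone was called. Yp3 rose from 7.05 to 13.6 FPKM (log2 difference 0.86, q = 0.00278 in the authors' deposited table). LOC101889813 stood at 3.21 FPKM in IIIM testes and was listed at 0 in YM testes (q = 0.00107 in the authors' deposited table). That call carries no test statistic in the table, as was the case for 12 genes of this comparison, all with a value of 0 in 1 of the strains and 10 of them called. LOC101890561 missed the threshold in the authors' deposited table (q = 0.0513) at 0.829 and 2.06 FPKM, LOC101889984 did so with q = 0.236, LOC101891084 with q = 0.255, and LOC101889640 with q = 0.960. Of the 6 tested members 5 had values higher in YM than in IIIM testes, as had 51.8% of all tested genes. The median log2 difference was 0.42 over the 6 members and 0.02 over all tested genes. This count and this median include yp3 and LOC101889813, so nothing is read from them. The 4 tested members taken for their ortholog group alone had log2 differences of 0.03 to 0.74, with none called. The ovary marker bcd stood at 1.96 FPKM in IIIM and 0.577 FPKM in YM testes, with q = 0.0132 in the table that the authors deposited, and its part in these results was not tested.

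The single female libraries differed in yp3 and LOC101891084 in opposite directions in head and ovary. In female heads yp3 stood 3.83-fold higher in the CSaY library (log2 difference 1.93, q = 0.104 in the authors' deposited table) and LOC101891084 11.95-fold higher (log2 difference 2.69, q = 0.0975 in the same table). Neither was called, nor were the other 3 tested members, beside 0.772% of tested genes. LOC101889640 differed by 1.03-fold and LOC101890561 by 1.24-fold between the same libraries, both higher in CS, and LOC101889984 by 1.68-fold, higher in CSaY as yp3 was. In ovaries yp3 stood 3.93-fold higher in the CS library (log2 difference -1.93, q = 0.0163 in the authors' deposited table), the only 1 of 4 tested members that was called, beside 0.358% of all tested genes called and 0.0511% called lower in CSaY. LOC101891084 was 6.64-fold, LOC101890561 3.09-fold and LOC101889640 1.59-fold higher in the CS ovary library, and none of the 3 was called (q = 0.332, 0.999 and 0.999 in the authors' deposited table). The values of all 4 tested members were higher in the CS ovary library, as were those of 51.0% of all tested genes. The ovary marker bcd, the single marker matched, stood at 253 and 249.7 FPKM in the CS and CSaY ovary libraries. These comparisons set 1 library against 1 library, so they compare the libraries and not the strains.

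**Figure D3:**
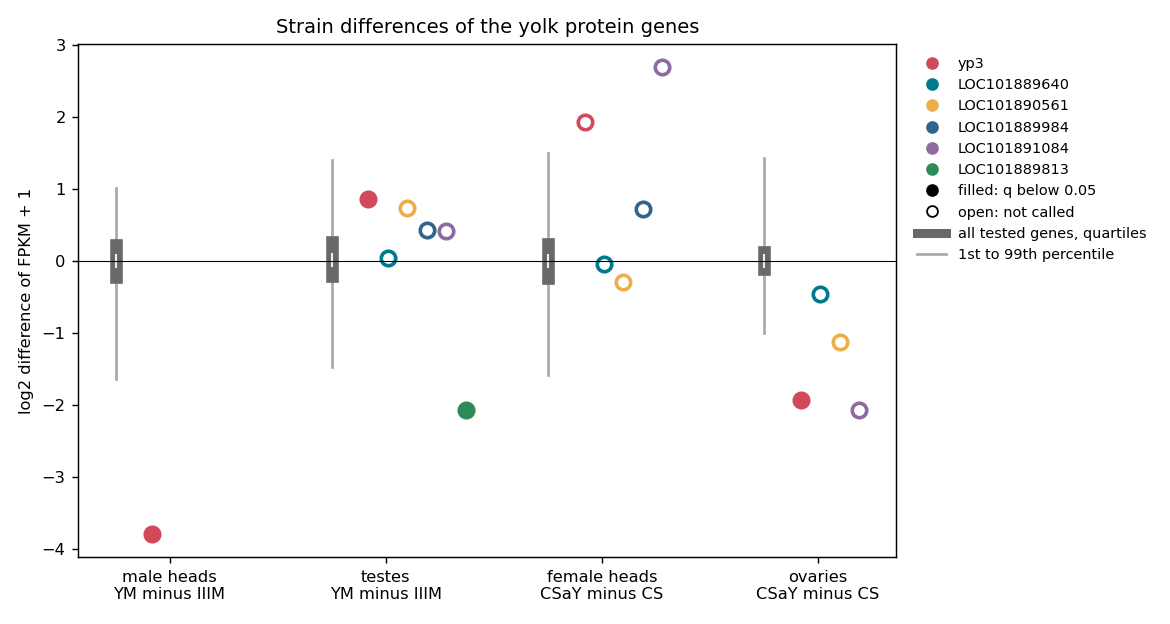
Log2 difference of FPKM + 1 between the strains for each tested yolk protein gene (points) in 4 comparisons, beside the quartiles and the 1st to 99th percentiles of all tested genes (grey); filled points had q below 0.05 in the authors' deposited table. Yp3 lies at -3.80 in male heads, 0.86 in testes, 1.93 in female heads and -1.93 in ovaries.

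Between testis and ovary all 6 tested members were called, 3 in each direction, beside 73.6% of all tested genes, so the count itself says little. By the means of the 2 strain values, yp3 (68.3 in ovary against 10.3 FPKM in testis, q = 0.000102 in the authors' deposited table), LOC101891084 (5.02 against 1.23 FPKM, q = 0.00158) and LOC101890561 (2.71 against 1.44 FPKM, q = 0.0475) were higher in ovary. LOC101889984 (9.69 in testis against 0.338 FPKM in ovary, q = 0.00311 in the authors' deposited table) and LOC101889640 (7.16 against 2.21 FPKM, q = 0.00183) were higher in testis. LOC101889813 was also called higher in testis (q = 0.000102 in the authors' deposited table), at a mean of 1.61 FPKM and listed at 0 in ovary, again with no test statistic. LOC101889984 and LOC101889813 were not tested between the ovary libraries and entered the comparison through their testis level, so they could hardly have been called towards ovary, and LOC101889813 was chosen for its testis values. The share of all tested genes was 41.2% higher in ovary and 32.5% higher in testis. The median log2 difference, testis minus ovary, was 0.37 over the 6 members and 0.23 over all tested genes. Yp3 alone of the 6 had both ovary libraries above both testis columns, as 42.9% of all tested genes did, and LOC101889640 and LOC101889984 had both below, as 49.5% did. For LOC101891084 and LOC101890561 the CS ovary library lay above the YM testis value and the CSaY ovary library below it.

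**Figure D4:**
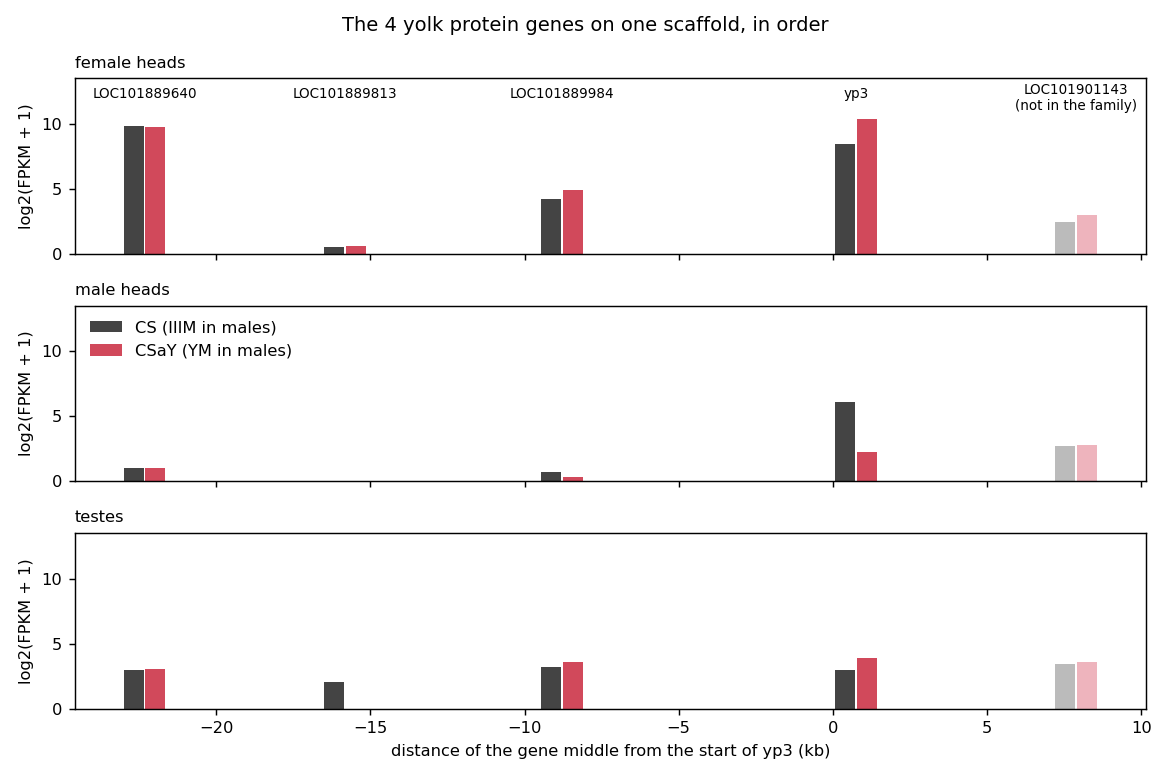
The 4 yolk protein genes on the scaffold of yp3 and the next gene, LOC101901143, by distance of the gene middle from the start of yp3 in kilobases, with log2(FPKM + 1) in female heads, male heads and testes for each strain. Yp3 and LOC101889640 are the high ones in female heads. In IIIM and YM male heads yp3 stands at 66.0 and 3.82 FPKM, the contrast for which it was chosen. The other family members were not tested there, and LOC101901143 stands at 5.54 and 5.83 FPKM in IIIM and YM male heads.

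Few neighbours outside the family were tested between male heads. Within 50000 bases of a member lie 5 other genes, of which 3 were tested there and 1 was called, beside 9.25% of all tested genes. The called gene, LOC101890732, lies on scaffold NW_004769917 and not on that of yp3. It stood at 1.45 FPKM in IIIM and 2.46 FPKM in YM heads, higher in YM (q = 0.0470 in the authors' deposited table). LOC101901143, 4838 bases beyond yp3, stood at 5.54 and 5.83 FPKM in IIIM and YM heads (q = 0.939 in the authors' deposited table). LOC101901423, 14262 bases beyond yp3, stood at 30.4 and 32.2 FPKM (q = 0.880 in the authors' deposited table). None of the 3 neighbours tested between testes was called, beside 13.0% of all tested genes. Nothing is read from such small counts.

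The genes whose pattern was most like that of yp3 over the 8 groups varied over smaller ranges. The measure of likeness was Pearson's r of log2(FPKM + 1) over the 8 strain columns, given as a description because the male columns share their processing and the female ones rest on single libraries. Among 8879 genes with a mean of at least 5 FPKM the 5 highest values belonged to LOC101894079 (r = 0.97), LOC101888239 (r = 0.93), LOC101893811 (r = 0.92), LOC101897495 (r = 0.92) and LOC101889517 (r = 0.90). Their highest and lowest groups differed by 2.14-fold to 6.15-fold, against 347-fold for yp3. The male values for which yp3 was chosen enter r, and 2 of these 5 genes were found again with Spearman's rho. Within the family r with yp3 was 0.85 for LOC101890561, 0.78 for LOC101889640, 0.66 for LOC101891084, 0.49 for LOC101889984 and -0.09 for LOC101889813.

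Of the genes that direct sex in Drosophila, Sxl alone could be matched by name. It stood at 30.3 and 31.6 FPKM in IIIM and YM male heads, at 15.6 and 21.2 FPKM in CS and CSaY female heads, at 16.6 and 14.4 FPKM in IIIM and YM testes and at 97.9 and 101 FPKM in CS and CSaY ovaries. It was called between testis and ovary (q = 0.000102 in the authors' deposited table) and in none of the other 5 comparisons. These values give the level of the gene and not of its transcript forms, and its role in the house fly was not tested.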

How the data were processed

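The FPKM values were computed by the authors before deposit, 1 per strain, sex and tissue, per the file headers. Another 4 FPKM columns, which could not be assigned to 1 sample or group, were left out, although they were planned as the levels of the sex comparisons. There the mean of the 2 strain values is given instead. Its direction matched the sign of the authors' statistic for 1246 of 1256 called genes between heads and 6999 of 7009 between gonads, all members with a statistic included. The q values (adjusted p-values) and the test statistic, a score, of 6 comparisons are used as deposited by the authors, and genes with no q were not tested. Cufflinks 2.2.1, Bowtie2 2.1.0.0, TopHat2 2.0.8b and CASAVA 1.8.2 appear without a role in the submitters' processing notes. The genome build, the adjustment of q and the handling of multi-mapping reads are not given in the sources read.

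Log2 differences use FPKM + 1, and folds are ratios of FPKM. No test was added. Read depth is not given. For values under 0.3 FPKM the most common ratio of the CSaY to the CS library, the relative worth of 1 read, was 1.21 in female heads and 0.97 in ovaries. Members, lists and tests were chosen with earlier results of these data known. Names come from the RefSeq table of GCF_030504385.1, which holds 12168 of the 14631 gene IDs (83.2%), and 52 have an informative symbol. By name, 2 of 8 lists found a gene (Sxl, bcd), and the lists for yolk and egg coat, yolk uptake, lipases, head, testis and fat body found none. Named genes are all members, neighbours within 50000 bases (up to 6), the 5 genes most like yp3 and list members. LOC101890393 in the closing section was looked at after values were seen. Alternatives were a pseudocount of 0.1, median centring, q below 0.01, at least 2-fold, a minimum FPKM, Spearman's rho and, after the data were seen, a minimum range. Software was matplotlib 3.10.9, scipy 1.17.1, pandas 2.3.3 and numpy 2.4.6 under Python 3.11.15.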

Additional observations from a re-analysis of the deposited data

Results flagged for a closer look

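The strain difference of yp3 had opposite signs in male heads and testes: the log2 difference (YM minus IIIM) in heads minus that in testes was -4.66. It also had opposite signs in female heads and ovaries, where the log2 difference (CSaY minus CS) in heads minus that in ovaries was 3.87. LOC101891084 had opposite signs in the same female tissues, with a difference of 4.76. Each rests on 1 value per strain and tissue, and the difference between tissues was not tested. Yp3 was chosen for its strain differences in male heads or testes, so nothing is read from the -4.66.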

How the results depend on the processing

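For the 27 pairs of a member and a comparison with a q, the log2 difference kept its direction with a pseudocount of 0.1 and with median centring. The comparison with columns that pool the strains was not run, since those columns were not used. With a minimum of 2-fold on FPKM + 1, 1 member in place of 2 was called between testes, because yp3 fell below the limit. With q below 0.01, 0 members in place of 1 were called between the ovary libraries, where the smallest q in the authors' deposited table is 0.0163, so no gene could have passed. The other counts of called members stayed within 1.5 times under q below 0.01, at least 2-fold and a mean FPKM of at least 1. Of the 5 genes most like yp3, 2 were found again with Spearman's rho and 0 when genes had to vary by at least 10-fold, an alternative chosen after seeing the data. None of the 5 varied by more than 6.14-fold in FPKM + 1, so this limit removed them whatever their r, and the 0 was fixed in advance. The median log2 difference over all tested genes was 0.31 between male and female heads and 0.23 between testis and ovary. No paired analysis was possible because the male values are given per group and not per library, and for the same reason no replicate could be left out. The calls between single female libraries have no replicate, and values listed at 0 allow no fold.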

Other observations

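LOC101890393, a gene outside the yolk protein family that lies on the scaffold of LOC101891084 and LOC101890561 (positions 36236 to 37972 of NW_004769917), differed between the female libraries in the same directions as yp3. Ovaries of CS and CSaY held 31.9 and 10.6 FPKM, 3.01-fold (q = 0.0163 in the authors' deposited table), and it stood at 0.645 and 2.79 FPKM in the CS and CSaY female head libraries, 4.32-fold (q = 0.694 in the authors' deposited table). It was listed at 0 in both male head groups. Yp3 and LOC101890393 are 2 of the 4 genes called lower in the CSaY ovary library. This gene has no Drosophila ortholog in the table and no entry in the later RefSeq table, so it is given no role.

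With the likeness to yp3 limited to genes whose FPKM + 1 varied by at least 10-fold over the 8 groups, 3916 genes in all, the family member LOC101890561 held the second place (r = 0.85). The first place went to LOC101891113 (r = 0.88), at 68.6 and 63.0 FPKM in CS and CSaY female heads, 1.35 and 1.09 FPKM in IIIM and YM male heads, and 8.44 and 5.54 FPKM in CS and CSaY ovaries.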
